A study of Homo sapiens with 32 samples.

Results

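Clone cl.21 of the Caco-2 cell line, labelled HIF1A-KO and called HIF1A-null by the study, was sequenced after HoxBan monoculture in 3 libraries (numbers 4, 7 and 24) and after 2D well culture in 3 libraries (numbers 1, 2 and 31). These 6 of the 32 libraries of the series were picked by genotype and treatment label alone. Caco-2 is a line of human colon adenocarcinoma cells that is widely used as a stand-in for intestinal epithelium. Control cells with Cas9 and the empty vector (e.v. in the labels, 3 libraries in monoculture and 3 in 2D) and WT cells (3 in monoculture and 4 in 2D) were used to see where the HoxBan response of HIF1A-null cells differed, and HIF1A-null cells cocultured with F. prausnitzii (3 libraries) gave levels and, like the other coculture groups, entered the shared estimate of spread. The cl.21 and e.v. cells shared lentiviral Cas9 and drug selection, which WT cells lacked, and cl.21 also carried a guide against HIF1A. Since cl.21 is a single picked clone, effects of the edit and of the clone itself cannot be told apart. The labels leave unsaid whether replicate libraries stem from separate cultures, and p-values then measure only the spread between these libraries, which may be technical.

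Hypoxia-inducible factor 1 (HIF1) pairs an oxygen-regulated α subunit, the product of HIF1A, with the stable partner ARNT. In oxygen, prolyl hydroxylases (EGLN1 to EGLN3) mark HIF1α for destruction by the VHL ligase and the asparaginyl hydroxylase FIH (HIF1AN) silences what is left. When oxygen falls the α subunit builds up and binds the short DNA motif ACGTG or GCGTG next to genes of glucose uptake, glycolysis, angiogenesis and mitochondrial turnover. The colonic epithelium lives next to an anaerobic lumen and is known for steady HIF activity. HoxBan (Human oxygen-Bacteria anaerobic) lays cells on a coverslip face down on YCFAG agar, a rich bacterial growth medium, with antibiotic-free culture medium above and oxygen entering from the top. In monoculture the agar holds no bacteria. HoxBan and 2D culture differ in support, nutrients and oxygen supply at once, and these cannot be told apart here.

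RNA was measured by QuantSeq, which counts reads at the 3′ ends of transcripts. A level in CPM is a gene's count relative to all counts of its library, corrected for library composition by edgeR's TMM factors. Total counts of HIF1A-null libraries were 4309745 to 5932966 in monoculture and 5545980 to 6686797 in 2D. Mitochondrial transcripts took 7.91% to 17.6% of counts in monoculture and 4.49% to 15.3% in 2D, and the mean was 12.1% ± 4.98 in monoculture and 8.69% ± 5.77 in 2D (SD, n = 3 each, exact permutation test, two-sided, p = 0.50, where 3 against 3 cannot go below 0.1). The high 2D value belonged to library 1, and 1 control and 1 WT library in 2D (26 and 12) also stood apart, with 17.1% and 14.1%. Of 10 epithelial and Caco-2 markers 1 was called lower (CDX2) and none higher, with the summed level at 3248 to 4638 CPM in monoculture and 3589 to 4213 CPM in 2D. Of 7 immune, 9 goblet, Paneth and enteroendocrine, and 8 fibroblast and endothelial markers, 3, 2 and 4 could be tested and none was called. Among these, PTPRC, CLCA1, DEFA6 and CDH5 were at 0 in all 6 libraries. The summed levels were 14.4 to 17.8 CPM in monoculture and 13.5 to 27.2 CPM in 2D for the immune markers, 15.1 to 44.2 and 10.2 to 30.6 CPM for goblet, Paneth and enteroendocrine markers, and 57.4 to 86.5 and 60.4 to 75.6 CPM for fibroblast and endothelial markers. In bulk RNA, fewer cells of a kind and less RNA per cell cannot be told apart.

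HIF1A-null cells changed widely between the cultures. Of 12849 genes tested, 1293 were higher in HoxBan monoculture (10.1%) and 1289 lower (10%) at an adjusted p under 0.05 by edgeR's quasi-likelihood test, and 691 of the higher and 592 of the lower genes changed at least 2-fold. An unadjusted p under 0.05 was reached by 4145 genes, where chance gives 642. The libraries of monoculture and 2D did not overlap for 2522 of the 2582 called genes. The calls were made from these same libraries, so this count is no separate support for them. Of all genes tested, the called ones included, 38.3% had no overlap. With library 2 or 24 left out, 857 and 825 genes were higher, and with library 4 or 24 left out, 807 and 831 were lower. Scaled by library totals alone, 32.9% of the called genes were higher instead of 50.1%, and the median log2 fold change of all genes was -0.15 instead of -0.02.

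Genes of several functions were among those that rose with the smallest adjusted p, at 5 CPM or more and without overlap of libraries. GADD45B, a stress sensor that binds MAP kinase kinases, had 224, 232 and 232 CPM in HIF1A-null monoculture, against 4.11, 4.56 and 3.20 CPM in HIF1A-null 2D. Its log2 fold change was 5.84 ± 0.39 (± standard error throughout), with the smallest adjusted p of the comparison (edgeR, 2.3e-10). All 3 monoculture libraries lay far above all 3 from 2D, and a lack of overlap was a condition of the choice. SNAI1, a repressor of E-cadherin transcription, had 74.9, 79.3 and 87.6 CPM in monoculture, against 10.8, 9.78 and 9.44 CPM in 2D (log2 fold change 3.01 ± 0.24, edgeR adjusted p 4.2e-09). PLK2, a polo-like kinase, had 35.2, 29.1 and 32.6 CPM in monoculture, against 2.89, 1.83 and 3.04 CPM in 2D. The groups did not overlap for either gene, as the choice required. RND3, an atypical small GTPase, CDKN2D, an inhibitor of CDK4 and CDK6, PHLDA2, an imprinted growth regulator, and H3-3B, which encodes the replacement histone H3.3, had log2 fold changes of 2.71, 3.55, 2.56 and 1.79 (edgeR adjusted p at most 3.1e-07). NGFR, the low-affinity neurotrophin receptor, had 361 counts over the monoculture libraries and 1 count over the 2D libraries, a ratio of CPM of 473 (95% counting interval 84.4 to 18739, which covers counting error only). AC039056.2, annotated by GENCODE 29 as an RNA inside an intron of another gene on the same strand, had 25.9, 13.2 and 38.4 CPM in monoculture, against 0.152, 0.521 and 0.761 CPM in 2D.

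**Figure D1:**
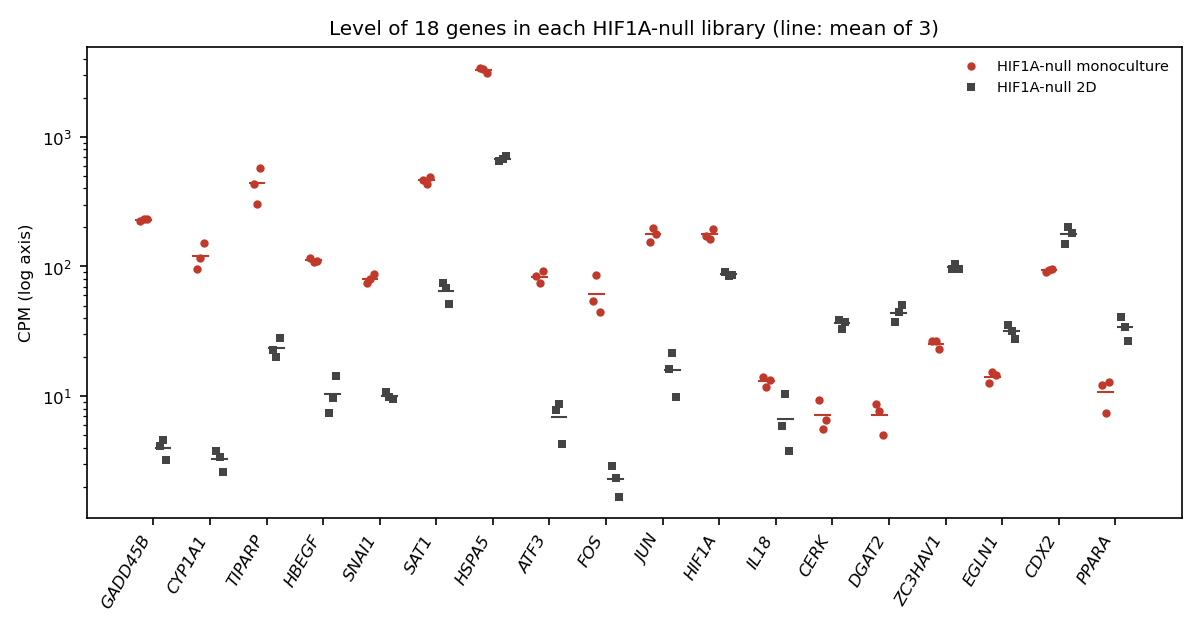
CPM on a log axis of 18 genes in each HIF1A-null library, with HoxBan monoculture (red circles) left of 2D (grey squares), and the mean of each group as a line. GADD45B lies between 224 and 232 CPM in monoculture and between 3.20 and 4.56 CPM in 2D. The groups do not overlap for any gene shown, which was a condition of the choice for some of them.

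The HIF1A transcript itself and its regulators come first. HIF1A (ENSG00000100644, chromosome 14, 61695513 to 61748259, plus strand, GRCh38) had 173, 164 and 194 CPM in HIF1A-null monoculture, against 90.3, 84.9 and 86.2 CPM in HIF1A-null 2D. Every monoculture library was above every 2D library, and the log2 fold change was 1.02 ± 0.19 (edgeR adjusted p 3.1e-04). The study's guide matches the 5′ part of the HIF1A transcript and QuantSeq reads its 3′ end, so the count does not check the edit. EGLN1, the main prolyl hydroxylase in most cells, fell to 12.5, 15.3 and 14.6 CPM in monoculture, against 35.3, 32.1 and 27.6 CPM in 2D (-1.17 ± 0.19, edgeR adjusted p 1.0e-04). HIF1AN had 36.0, 32.2 and 28.9 CPM in monoculture, against 67.0, 72.6 and 65.5 CPM in 2D (-1.08 ± 0.14, edgeR adjusted p 5.2e-06). Both hydroxylases were lower in all 3 monoculture libraries than in any from 2D. EGLN3, a prolyl hydroxylase that is itself a HIF target, was scarce, with 2.25, 1.39 and 2.25 CPM in monoculture, against 0.152, 0.521 and 0.609 CPM in 2D, and rose by log2 2.15 ± 0.52 (edgeR adjusted p 0.0044). Of 9 subunits and sensors tested, 2 were higher and 2 lower, beside 10.1% and 10% of all genes, and the other 5 were not called. ARNT2 was at 0 in all 6 libraries.

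HIF1 targets outside glycolysis changed in part. Of 43 tested, 12 were higher and 1 was lower (EGLN1), beside 10.1% and 10% of all genes, with a median log2 fold change of 0.30 against -0.02 for all genes. With the 2D library of high mitochondrial share of each line left out, 9 were higher. CITED2, a competitor of HIF1α for the coactivators CBP and p300, had 93.7, 52.7 and 73.0 CPM in monoculture, against 12.9, 11.2 and 11.6 CPM in 2D (2.62 ± 0.34, edgeR adjusted p 6.5e-06). ADM, the vasodilator peptide adrenomedullin, had 44.7, 53.2 and 36.6 CPM in monoculture, against 10.7, 9.78 and 14.8 CPM in 2D (1.93 ± 0.30, edgeR adjusted p 5.5e-05). NFIL3, a basic leucine zipper repressor of the clock, had 65.4, 42.6 and 78.2 CPM in monoculture, against 19.8, 18.1 and 16.3 CPM in 2D. None of these groups overlapped. DDIT4, an inhibitor of mTORC1, had 76.4, 56.4 and 97.0 CPM in monoculture, against 29.5, 27.0 and 18.4 CPM in 2D (1.62 ± 0.41, edgeR adjusted p 0.0059). BHLHE40, a repressor of the clock, EFNA3, an ephrin ligand, and RIOK3, an atypical kinase, rose by log2 1.63 ± 0.45, 2.25 ± 0.51 and 1.50 ± 0.30 (edgeR adjusted p 0.011, 0.0025 and 7.3e-04). HILPDA, a lipid droplet protein that inhibits the lipase ATGL, had 38.6, 27.3 and 34.3 CPM in monoculture, against 14.0, 14.9 and 17.4 CPM in 2D (1.12 ± 0.32, edgeR adjusted p 0.015). EFNA1, an ephrin ligand, and JMJD6, an oxygen-dependent hydroxylase, were also called, at log2 0.98 and 0.73. With single libraries left out, the calls of HILPDA (without 1, 2 or 4, highest adjusted p 0.065), EFNA1 (without 7, 0.051) and JMJD6 (without 24 or 31, 0.064) were lost, and the whole list held 10 or 11 higher genes.

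Several textbook HIF1 targets did not pass the test in HIF1A-null cells. For BNIP3, PLOD2 and VEGFA the difference from the response of control cells did not reach an unadjusted p under 0.05 by edgeR. That does not show that the responses were alike. BNIP3, a mitophagy receptor, had 15.4, 13.2 and 16.5 CPM in monoculture, against 14.2, 15.8 and 9.89 CPM in 2D (0.18 ± 0.64, edgeR adjusted p 0.88). PLOD2, a collagen lysyl hydroxylase, had 33.1, 24.1 and 33.4 CPM in monoculture, against 30.9, 29.3 and 14.8 CPM in 2D (0.28 ± 0.51, adjusted p 0.76). ANKRD37 had 6.11, 3.93 and 9.38 CPM in monoculture, against 5.33, 6.26 and 3.20 CPM in 2D (0.41 ± 0.75, adjusted p 0.76). For these 3 genes the libraries of the cultures overlapped. VEGFA, the main angiogenic growth factor, had 71.2, 82.6 and 82.9 CPM in monoculture, against 69.4, 57.6 and 56.2 CPM in 2D, at log2 0.37 ± 0.20 (edgeR adjusted p 0.20). CA9, a carbonic anhydrase often used as a hypoxia marker, had 0 counts in 5 of the 6 libraries and 1 count in a 2D library, and was not tested.

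The HIF motif was looked up in promoters of genes of this list and of HK2, to show the letters beside the values. The sequences are bases just before the start site from RefSeq (GRCh38.p14), trimmed so that they hold no annotated exon, and capitals mark ACGTG on either strand. The palindrome CACGTG holds ACGTG on both strands and is also the E-box of other basic helix-loop-helix factors. HK2 and DDIT4 were called higher, and PLOD2 and BNIP3 were not called.
HK2 (chr2:74834920-74835169, plus strand): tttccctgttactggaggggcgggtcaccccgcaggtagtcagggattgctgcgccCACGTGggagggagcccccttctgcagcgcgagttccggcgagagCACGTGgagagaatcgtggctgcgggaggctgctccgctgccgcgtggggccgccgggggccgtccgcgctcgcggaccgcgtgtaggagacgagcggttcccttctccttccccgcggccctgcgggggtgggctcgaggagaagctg
DDIT4 (chr10:72273674-72273919, plus strand): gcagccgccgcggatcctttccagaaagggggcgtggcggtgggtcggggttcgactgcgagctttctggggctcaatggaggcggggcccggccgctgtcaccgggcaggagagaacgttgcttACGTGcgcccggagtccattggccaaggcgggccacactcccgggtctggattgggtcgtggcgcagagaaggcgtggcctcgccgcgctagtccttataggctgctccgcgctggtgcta
PLOD2 (chr3:146161185-146161434, minus strand): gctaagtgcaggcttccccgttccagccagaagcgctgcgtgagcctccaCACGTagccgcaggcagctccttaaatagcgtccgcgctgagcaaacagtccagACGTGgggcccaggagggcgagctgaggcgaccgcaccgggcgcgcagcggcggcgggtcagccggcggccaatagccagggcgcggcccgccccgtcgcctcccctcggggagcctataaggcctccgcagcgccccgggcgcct
BNIP3 (chr10:131982014-131982173, minus strand): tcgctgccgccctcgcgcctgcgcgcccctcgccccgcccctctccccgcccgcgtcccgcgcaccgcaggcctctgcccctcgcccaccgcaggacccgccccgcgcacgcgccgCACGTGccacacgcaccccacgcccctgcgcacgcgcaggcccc
The window of HK2 held 4 matches to ACGTG in 2 CACGTG palindromes, that of DDIT4 held 1, that of PLOD2 held 2 and that of BNIP3 held 2 in 1 palindrome, with the DDIT4 window ending 4 bases and the BNIP3 window 90 bases before the start site. Of 35116 RefSeq windows of the same length and place, 18.5%, 18.2%, 18.5% and 11.2% hold ACGTG, in the order of the lines. The related motif GCGTG was found 2, 2, 1 and 4 times on either strand in the same windows. Of all 35116 windows, 32.2%, 31.9%, 32.2% and 21.0% hold GCGTG, in the same order. Matches of letters describe the sequence only.

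**Figure D2:**
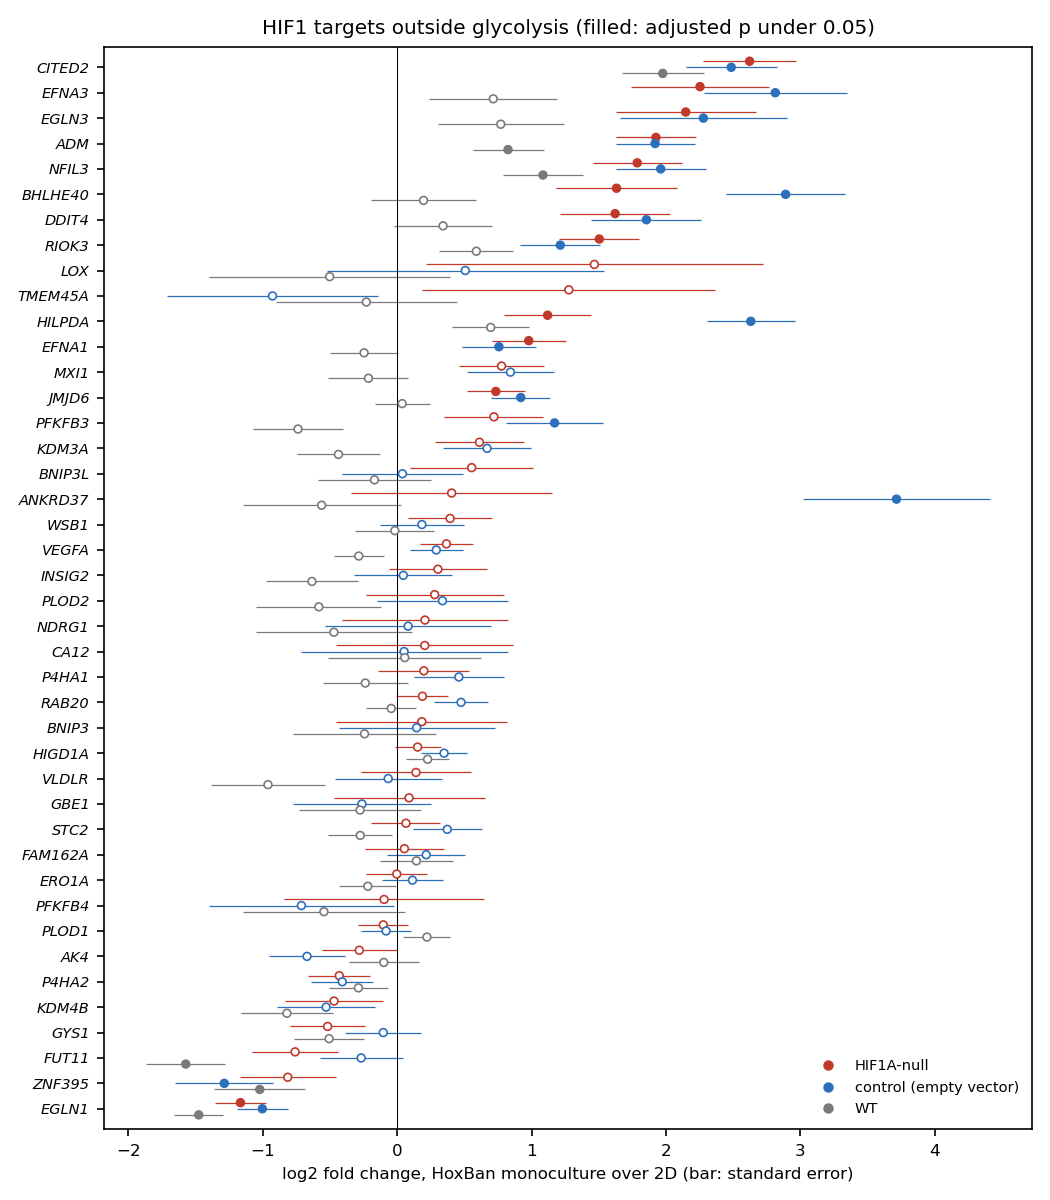
Log2 fold change of HoxBan monoculture over 2D (horizontal axis, bars are standard errors) for 42 of the 43 HIF1 targets outside glycolysis in HIF1A-null (red), control (blue) and WT cells (grey), sorted by the value in HIF1A-null cells and filled where the edgeR adjusted p was under 0.05. In HIF1A-null cells 11 are filled above 0 and 1 below, and ANKRD37 is at 0.41 in HIF1A-null and 3.71 in control cells.

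Of 21 glycolysis genes 3 were higher and none lower by edgeR, beside 10.1% and 10% of all genes, a share near that background. An unadjusted p under 0.05 was reached by 5 of the 21, beside 4145 of all 12849 genes. HK2, the inducible hexokinase, had 21.2, 24.8 and 24.6 CPM in HIF1A-null monoculture, against 10.0, 7.30 and 6.09 CPM in HIF1A-null 2D (1.59 ± 0.34, edgeR adjusted p 0.0017). HK1, the housekeeping hexokinase, had 15.4, 12.3 and 17.6 CPM in monoculture, against 6.70, 6.39 and 6.39 CPM in 2D (1.22 ± 0.36, edgeR adjusted p 0.017), and SLC2A3, the glucose transporter GLUT3, had 2164, 2224 and 2595 CPM in monoculture, against 1090.5, 893 and 1139 CPM in 2D (1.16 ± 0.34, edgeR adjusted p 0.018). These were the 3 called genes, without overlap between cultures. PGK1, phosphoglycerate kinase, had 282, 349.5 and 218 CPM in monoculture, against 411, 363 and 401 CPM in 2D (-0.48 ± 0.28, edgeR adjusted p 0.25). All 3 monoculture libraries of PGK1 lay below those from 2D, without passing the test. PDK1, which closes pyruvate dehydrogenase, had 25.2, 33.3 and 32.8 CPM in monoculture, against 16.6, 11.7 and 10.7 CPM in 2D (1.22 ± 0.47, adjusted p 0.066), and it passed with only the HIF1A-null groups in the fit (0.0032) and without the filter on low counts (7.3e-06). The median of the list was -0.02. The calls of HK1 and SLC2A3 were lost without library 2 or 24 (highest adjusted p 0.075 and 0.081). Of 9 iron handling genes, among them intestinal targets of HIF2, none was called by edgeR or DESeq2, where edgeR called 20.1% of all genes. By edgeR 2 of the 9 had an unadjusted p under 0.05, beside 4145 of all 12849 genes. Log2 fold changes of the list were -0.34 to 0.53.

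The aryl hydrocarbon receptor binds planar aromatic compounds, shares the partner ARNT with HIF1α and switches on xenobiotic metabolism. CYP1A1, its classical target and a monooxygenase, had 95.5, 116 and 152 CPM in HIF1A-null monoculture, against 3.81, 3.39 and 2.59 CPM in HIF1A-null 2D (5.21 ± 0.44, edgeR adjusted p 1.2e-08). TIPARP, a mono-ADP-ribosyltransferase that restrains the receptor, had 436, 302 and 574 CPM in monoculture, against 22.8, 19.9 and 28.3 CPM in 2D (4.21 ± 0.34, edgeR adjusted p 4.8e-09). AHR itself had 113, 68.9 and 140.3 CPM in monoculture, against 66.1, 52.1 and 35.9 CPM in 2D (1.07 ± 0.30, edgeR adjusted p 0.013), a call lost without library 24 or 31 (highest 0.10). These 3 were all of the 8 listed genes that could be tested, and all were higher, beside 10.1% of all genes. No value of CYP1A1 in 2D came near those of monoculture.

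Immediate early genes, which answer growth factors and stress within minutes through existing factors, were mostly higher. Of 26 tested, 20 were higher and none lower, beside 10.1% and 10% of all genes, with a median log2 fold change of 1.95. FOS had 54.3, 86.1 and 44.6 CPM in HIF1A-null monoculture, against 2.89, 2.35 and 1.67 CPM in HIF1A-null 2D (4.72 ± 0.52, edgeR adjusted p 7.3e-07), and its partner JUN had 154, 198 and 178 CPM in monoculture, against 16.1, 21.6 and 9.89 CPM in 2D (3.47 ± 0.37, edgeR adjusted p 3.4e-07). DUSP1, a phosphatase that switches off MAP kinases, had 37.8, 65.0 and 32.6 CPM in monoculture, against 6.24, 5.48 and 5.78 CPM in 2D. All 3 were separated by several-fold gaps between cultures. EGR1, a zinc finger factor, rose by log2 3.00 ± 0.44, and the orphan nuclear receptors NR4A1 and NR4A2 rose by 3.12 ± 0.55 and 4.45 ± 0.51. EGR2 had 4.34, 2.31 and 4.50 CPM in monoculture, against 0, 0 and 0.152 CPM in 2D. With 61 counts over the monoculture libraries and 1 over the 2D libraries, its ratio of CPM was 79.9 (95% counting interval 13.8 to 3209). With single libraries left out, 18 or 19 genes stayed higher, and KLF4 (without 24) and MCL1 (without any of the 6) lost their calls, at highest adjusted p of 0.079 and 0.16. Genes of the EGF receptor system were also called, 3 higher and 2 lower of 6, beside 10.1% and 10% of all genes. HBEGF, a membrane-shed ligand, had 115, 109 and 110.5 CPM in monoculture, against 7.46, 9.65 and 14.3 CPM in 2D (3.41 ± 0.27, edgeR adjusted p 4.2e-09). AREG (amphiregulin) had 1274, 1274 and 1281 CPM in monoculture, against 621, 560.3 and 556 CPM in 2D, and EREG (epiregulin) had 453, 454 and 389 CPM in monoculture, against 165, 150.1 and 157 CPM in 2D (1.45 ± 0.21). The receptors ERBB2 and ERBB3 were lower, at 28.1, 14.8 and 29.4 CPM and 60.3, 32.8 and 61.5 CPM in monoculture, against 50.9, 60.2 and 49.6 CPM and 136, 147 and 102 CPM in 2D (edgeR adjusted p 0.0046 and 0.0078). These 3 ligands rose and these 2 receptors fell without overlap of libraries, and EGFR itself had 31.5, 25.9 and 25.5 CPM in monoculture, against 35.5, 28.4 and 17.7 CPM in 2D, with overlap (0.03 ± 0.27, edgeR adjusted p 0.96).

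**Figure D3:**
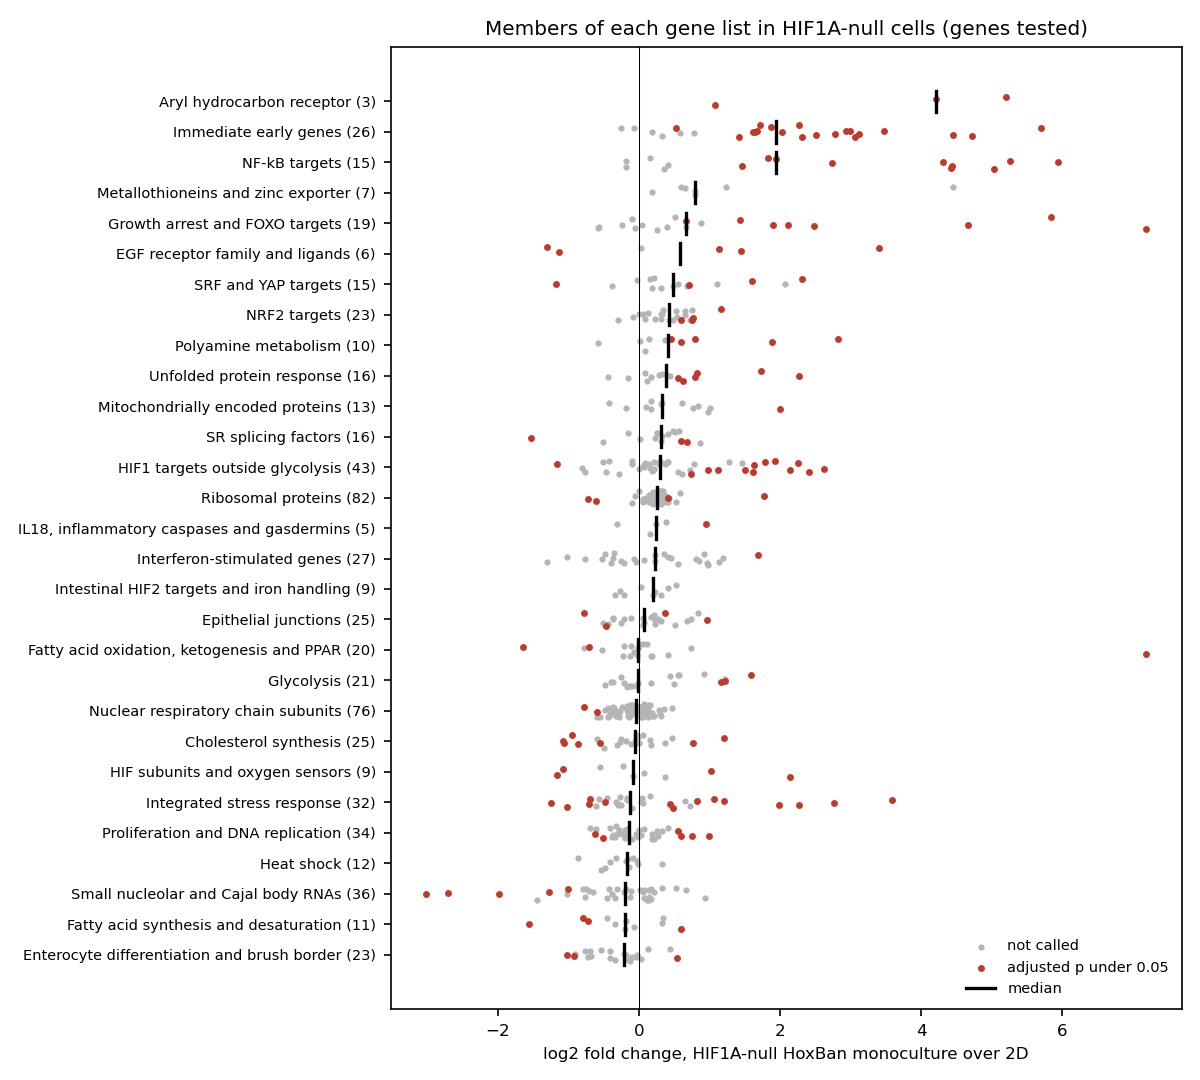
Log2 fold change of HIF1A-null HoxBan monoculture over 2D for the tested members of 29 gene lists, 1 point per gene, red where the edgeR adjusted p was under 0.05, with the median of each list as a bar and lists sorted by it. Immediate early genes have 20 of 26 red points above 0 and a median of 1.95, and respiratory chain subunits lie around -0.04, where genes with 0 or 1 count in 2D, such as PDK4 and EGR2, are drawn at fitted values that depend on the prior count.

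Growth arrest and FOXO targets had 8 of 19 genes higher and none lower (median 0.67), beside 10.1% and 10% of all genes. GADD45A, a p53 target that inhibits CDK1, had 448, 389 and 522 CPM in HIF1A-null monoculture, against 79.0, 85.7 and 78.1 CPM in HIF1A-null 2D (2.49 ± 0.23, edgeR adjusted p 4.2e-08). GADD45G of the same family had 30.1, 23.8 and 34.3 CPM in monoculture, against 0.761, 1.69 and 0.913 CPM in 2D (4.66 ± 0.49, edgeR adjusted p 3.4e-07). CDKN2B (p15), BCL6 and ARRDC4 rose by log2 1.90 ± 0.48, 1.44 ± 0.30 and 2.12 ± 0.49, and BTG1 by 0.67, a call lost without library 1, 4, 24 or 31 (highest adjusted p 0.15). PDK4, a pyruvate dehydrogenase kinase, had 59 counts over the monoculture libraries and 0 in 2D, which makes it at least 25.8-fold higher against a floor of 3 counts over the group. Library 7 had 0.463 CPM of PDK4, against 4.66 and 5.25 CPM in libraries 4 and 24. Of 34 genes of proliferation and DNA replication 4 were higher and 2 lower (median -0.14), a share near the 20.1% of all genes, and 1 was higher without library 1. CDK1 had 595, 709 and 626 CPM in monoculture, against 390.4, 369 and 382 CPM in 2D (0.76 ± 0.16, edgeR adjusted p 0.0013), while AURKA had 319, 323 and 247 CPM in monoculture, against 372, 463 and 429 CPM in 2D (-0.51 ± 0.16, edgeR adjusted p 0.028). The calls of CCNE1, CCNE2, CDC6, AURKA and PLK1 did not survive every left-out library (highest adjusted p 0.097, 0.11, 0.15, 0.15 and 0.22), and that of CDK1 did.

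Stress genes split between arms. The integrated stress response, in which kinases phosphorylate eIF2α and translation of ATF4 rises, had 9 of 32 genes higher and 5 lower. Of all genes 10.1% were higher and 10% lower. ATF3, a repressing partner in this response, had 84.6, 75.0 and 91.5 CPM in HIF1A-null monoculture, against 7.77, 8.73 and 4.26 CPM in HIF1A-null 2D (3.59 ± 0.44, edgeR adjusted p 2.8e-06). DDIT3 (CHOP), a death-promoting factor, had 148, 58.5 and 182 CPM in monoculture, against 17.1, 22.3 and 18.0 CPM in 2D (2.77 ± 0.42, edgeR adjusted p 3.8e-05). PPP1R15A (GADD34), which brings a phosphatase to eIF2α, had 85.7, 116 and 75.0 CPM in monoculture, against 19.2, 20.5 and 17.7 CPM in 2D (2.26 ± 0.27, edgeR adjusted p 1.7e-06). Library 7 was the lowest of the monoculture libraries for DDIT3 and the highest for PPP1R15A. GDF15, a secreted stress cytokine, had 202, 167 and 165 CPM in monoculture, against 36.1, 56.1 and 42.2 CPM in 2D (1.99 ± 0.28). TRIB3 fell to 16.6, 20.6 and 14.8 CPM in monoculture, against 41.7, 41.3 and 40.0 CPM in 2D (-1.25 ± 0.20, edgeR adjusted p 9.4e-05), and the serine synthesis enzyme PHGDH had 108, 111 and 98.8 CPM in monoculture, against 172, 185 and 161 CPM in 2D. ATF4 was higher at log2 0.43 ± 0.15 (edgeR adjusted p 0.045). Its call was lost without library 1, 2, 4 or 24 (highest 0.22), as were those of MTHFD2, CTH, SLC38A2, AARS1 and ADM2 without 1 or more libraries (highest 0.14, 0.33, 0.093, 0.14 and 0.26), and the list held 6 to 9 higher and 2 to 5 lower genes across the left-out libraries.

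In the unfolded protein response of the endoplasmic reticulum, 6 of 16 genes were higher and none lower, beside 10.1% and 10% of all genes. HSPA5 (BiP), the main chaperone of that compartment, had 3361, 3314 and 3121 CPM in HIF1A-null monoculture, against 647, 675 and 705 CPM in HIF1A-null 2D (2.27 ± 0.26, edgeR adjusted p 7.9e-07). DNAJB9, a BiP cochaperone, had 79.4, 65.0 and 81.2 CPM in monoculture, against 25.3, 19.9 and 22.5 CPM in 2D (1.74 ± 0.23, edgeR adjusted p 6.7e-06), and DNAJC3 and DNAJB11 rose by log2 0.82 ± 0.19 and 0.55 ± 0.13. SDF2L1 and HERPUD1 were called at 0.62 and 0.80, but not without library 1, 2, 4 or 24, nor without 31 for HERPUD1 (highest adjusted p 0.18 and 0.25). The heat shock list had 0 of 12 genes called by edgeR, beside 20.1% of all genes, and 1 by DESeq2. By edgeR 3 of the 12 had an unadjusted p under 0.05, beside 4145 of all 12849 genes. HSPE1, the mitochondrial cochaperonin of that list, was at -0.86 ± 0.31 (edgeR adjusted p 0.051). Of 23 NRF2 targets of the antioxidant response 4 were higher, beside 10.1% of all genes. They were GCLC, TXNRD1, SRXN1 and GSR (log2 0.59 to 1.16), all highest in library 7. Each of the 4 calls was lost without 1 or more of libraries 1, 2 and 7, with highest adjusted p of 0.14 to 0.23. Without library 1, 1 gene of the list was called higher. Of 7 metallothioneins and zinc exporters none was called by edgeR, beside 20.1% of all genes, and 1 was called by DESeq2. By edgeR 1 of the 7 had an unadjusted p under 0.05, beside 4145 of all 12849 genes. MT2A had 11.4, 67.5 and 12.4 CPM in monoculture, against 6.55, 9.91 and 21.3 CPM in 2D, and its log2 fold change was 1.23 with all libraries and -0.07 without library 7.

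NF-κB targets rose, with library 7 apart from the others in chemokines. Of 15 tested, 10 were higher and none lower (median 1.94), beside 10.1% and 10% of all genes. TNFAIP3 (A20), a brake on NF-κB, had 66.6, 142 and 62.3 CPM in HIF1A-null monoculture, against 11.9, 13.6 and 14.6 CPM in HIF1A-null 2D (2.74 ± 0.32, edgeR adjusted p 1.7e-06). BIRC3, an inhibitor of apoptosis, had 37.1, 98.1 and 44.4 CPM in monoculture, against 4.42, 2.35 and 1.37 CPM in 2D (4.44 ± 0.49, edgeR adjusted p 7.2e-07). NFKBIA, the inhibitor IκBα, had 117, 291 and 86.8 CPM in monoculture, against 42.8, 45.5 and 49.2 CPM in 2D, at log2 1.83 ± 0.29 with all libraries and 1.16 without library 7. The chemokine CCL20, which draws CCR6-bearing cells, had 21.5, 214 and 13.1 CPM in monoculture, against 0.761, 1.56 and 1.52 CPM in 2D, and the neutrophil chemokine CXCL3 had 9.49, 105 and 5.25 CPM in monoculture, against 0.609, 1.30 and 1.52 CPM in 2D. Library 7 held most of these counts, and the log2 fold changes were 5.94 ± 1.02 and 5.04 ± 0.85 with it and 3.74 and 2.67 without it (edgeR adjusted p 1.6e-04 and 1.4e-04, and 0.0025 and 0.0032). CXCL1 kept its call without library 7, at 3.04 instead of 5.26. CXCL2 and CXCL8 did not, at 1.35 and 2.50 instead of 4.31 and 4.42. Of the monoculture libraries, the summed level of the list was 375 CPM at the lowest and 1146 CPM at the highest, against 215 to 222 CPM in 2D, and the part of library 7 beyond these values was not tested. RELB and NFKB2, subunits of the noncanonical arm, rose by log2 1.94 ± 0.36 and 1.46 ± 0.32.

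IL18, the epithelial cytokine at the centre of the study, had 14.1, 11.8 and 13.3 CPM in HIF1A-null monoculture, against 5.94, 10.4 and 3.81 CPM in HIF1A-null 2D. All 3 monoculture libraries were above those from 2D, the nearest at 11.8 CPM in monoculture and 10.4 CPM in 2D, and the log2 fold change was 0.96 ± 0.32 (edgeR adjusted p 0.033). The call was lost without library 1, 4, 24 or 31 (highest adjusted p 0.17), with library totals as the scale (0.095), and without the 3 2D libraries of high mitochondrial share (0.11). Of 16 genes of IL18, inflammatory caspases and gasdermins 5 could be tested, and CASP4, GSDMD and GSDME were at log2 0.24 ± 0.21, -0.31 ± 0.29 and 0.38 ± 0.19, none past the test. PYCARD, NLRP6 and NLRC4 were at 0 in all 6 libraries. Of 27 interferon-stimulated genes 1 was higher, beside 10.1% of all genes. It was IRF1, with 35.2, 29.1 and 36.0 CPM in monoculture, against 9.59, 10.3 and 11.3 CPM in 2D (1.69 ± 0.30, edgeR adjusted p 2.2e-04). ISG15 had 21.5, 13.0 and 21.6 CPM in monoculture, against 8.68, 10.6 and 5.33 CPM in 2D (1.20 ± 0.54, adjusted p 0.12).

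Metabolic genes were called in each direction. In polyamine metabolism 5 of 10 genes were higher and none lower, beside 10.1% and 10% of all genes, with 3 higher without library 1. SAT1, which acetylates spermidine and spermine for export or breakdown, had 462, 432 and 486 CPM in HIF1A-null monoculture, against 74.9, 68.6 and 51.6 CPM in HIF1A-null 2D (2.82 ± 0.26, edgeR adjusted p 4.2e-08), and SMOX, spermine oxidase, had 35.9, 28.9 and 38.3 CPM in monoculture, against 6.70, 12.4 and 8.83 CPM in 2D (1.88 ± 0.24, edgeR adjusted p 4.7e-06). AZIN1, which frees ornithine decarboxylase from its antizyme, rose by log2 0.59 ± 0.12. ODC1 and AMD1 were called at 0.79 and 0.45 but lost their calls without several of the libraries (highest adjusted p 0.16 and 0.11). Of 25 cholesterol genes 2 were higher and 5 lower, beside 10.1% and 10% of all genes. STARD4, a sterol carrier, had 133, 98.3 and 118 CPM in monoculture, against 56.9, 45.0 and 49.5 CPM in 2D, and the synthesis enzyme MSMO1 had 259, 242 and 282 CPM in monoculture, against 150.4, 141 and 169.6 CPM in 2D. The cyclase LSS had 15.8, 21.7 and 19.7 CPM in monoculture, against 36.8, 39.8 and 42.5 CPM in 2D (-1.07 ± 0.21, edgeR adjusted p 8.2e-04). These 3 genes moved in both directions with no overlap of libraries, which was also absent for 38.3% of all genes tested. In fatty acid synthesis 1 of 11 genes was higher and 3 were lower, beside 10.1% and 10% of all genes. ELOVL6, an elongase, had 15.6, 25.4 and 15.8 CPM in monoculture, against 61.2, 48.9 and 55.3 CPM in 2D (-1.56 ± 0.21, edgeR adjusted p 1.1e-05). FASN had 142, 234 and 146 CPM in monoculture, against 302, 277 and 319 CPM in 2D (-0.79 ± 0.18, edgeR adjusted p 0.0021). The nuclear receptor PPARA had 12.2, 7.40 and 12.8 CPM in monoculture, against 41.0, 34.4 and 26.6 CPM in 2D (-1.64 ± 0.38, edgeR adjusted p 0.0031). It was one of 2 lower genes among 20 of fatty acid oxidation, where 10% of all genes were lower. Of 76 nuclear respiratory chain subunits none was higher by edgeR and 2 were lower (NDUFC2 and CYC1), beside 10.1% and 10% of all genes. By DESeq2 2 were higher, and 11 of the 76 had an unadjusted p under 0.05 by edgeR, beside 4145 of all 12849 genes. Neither lower call held without each library (highest adjusted p 0.15 and 0.24).

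Of 13 mitochondrially encoded proteins 1 was called, beside 20.1% of all genes. With the 2D library of high mitochondrial share of each line left out, 6 were higher. These libraries were picked by that share, so leaving them out lowers mitochondrial transcripts in 2D by design. The count of 6 is therefore no support for a rise. MT-CO1 had 4194, 2692 and 5636 CPM in monoculture, against 1986, 710.3 and 453 CPM in 2D (2.00 ± 0.59, edgeR adjusted p 0.017), and the call was lost without library 2, 24 or 31 (highest 0.088). Library 1, whose mitochondrial share was 15.3%, had the highest 2D value, and without it the log2 fold change was 2.86, a value with the same limit. The mitochondrial transfer RNAs MT-TM and MT-TY went the other way, with 7.23, 5.09 and 5.25 and 15.0, 1.16 and 5.44 CPM in monoculture, against 56.6, 67.7 and 99.7 and 37.3, 46.8 and 40.2 CPM in 2D (-3.66 ± 0.58 and -2.46 ± 0.58, edgeR adjusted p 7.2e-05 and 0.0034), and MT-TY was at -3.58 without library 4. Among 36 small nucleolar and Cajal body RNAs tested none was higher and 5 were lower, beside 10.1% and 10% of all genes. With single libraries left out, 1 to 4 were lower. These short RNAs carry no poly(A) tail of their own, and how a 3′ method primed on poly(A) captures them was not tested. Of 82 ribosomal proteins 2 were higher and 2 lower by edgeR, beside 10.1% and 10% of all genes, and 6 were higher and 2 lower by DESeq2. The log2 fold change was above 0 for 77 of the 82, with a median of 0.26 against -0.02 for all genes. RPL22L1, a paralog of RPL22, had 229, 231 and 248 CPM in monoculture, against 77.0, 72.5 and 57.1 CPM in 2D (1.78 ± 0.22, edgeR adjusted p 3.3e-06).

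The enterocyte and junction lists had 3 of 23 and 4 of 25 genes called in either direction, where 20.1% of all genes were called. CDX2, the homeobox factor that specifies intestinal epithelium, had 90.8, 93.5 and 95.8 CPM in HIF1A-null monoculture, against 149, 202 and 179.6 CPM in HIF1A-null 2D (-0.92 ± 0.24, edgeR adjusted p 0.0079), below 2D in all 3 libraries. HNF4A, a hepatocyte nuclear factor of enterocytes, had 95.5, 109 and 116 CPM in monoculture, against 155, 149 and 123 CPM in 2D (-0.42 ± 0.26, adjusted p 0.28). In the enterocyte list 1 of 23 genes was higher (PLS1) and 2 were lower, among them CDX2, and the call of PLS1 was lost without library 2, 4, 24 or 31 (highest adjusted p 0.11). Of 25 junction genes 2 were higher and 2 lower. CLDN1, a sealing claudin, had 145, 192 and 133 CPM in monoculture, against 86.0, 82.7 and 69.7 CPM in 2D (0.97 ± 0.23, edgeR adjusted p 0.0035), and MARVELD2 (tricellulin) had 37.3, 34.9 and 30.2 CPM in monoculture, against 63.9, 60.4 and 51.1 CPM in 2D (-0.78 ± 0.17, edgeR adjusted p 0.0019). CDH1 had 632, 596 and 629 CPM in monoculture, against 556, 537 and 486 CPM in 2D (0.23 ± 0.17, adjusted p 0.37). CTNNB1 and MARVELD3 were the other called genes, both lost without library 2, 4, 24 or 31 and others (highest adjusted p 0.14 and 0.17). Of 15 SRF and YAP targets 3 were higher and 1 was lower, beside 10.1% and 10% of all genes. CCN1, a matrix protein induced by YAP, had 87.5, 136 and 53.8 CPM in monoculture, against 11.6, 18.6 and 25.3 CPM in 2D (2.30 ± 0.44, edgeR adjusted p 5.1e-04), while the factor SRF had 24.0, 38.2 and 19.5 CPM in monoculture, against 65.0, 64.4 and 54.0 CPM in 2D (-1.18 ± 0.25, edgeR adjusted p 0.0015). Of 16 SR splicing factors and their kinases 2 were higher and 1 was lower, beside 10.1% and 10% of all genes. With single libraries left out, 0 to 1 were called in each direction.

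Among the 12 lower genes with the smallest adjusted p, at 5 CPM or more and without overlap, were genes of lipid metabolism, RNA processing and antiviral defence. CERK, ceramide kinase, had 9.32, 5.55 and 6.56 CPM in HIF1A-null monoculture, against 38.5, 33.2 and 37.4 CPM in HIF1A-null 2D (-2.33 ± 0.21, edgeR adjusted p 2.3e-08). DGAT2, which makes triglyceride, had 8.68, 7.63 and 5.06 CPM in monoculture, against 37.3, 44.5 and 50.7 CPM in 2D (-2.63 ± 0.24, edgeR adjusted p 4.2e-08). ZC3HAV1, an antiviral protein that binds CpG-rich RNA, had 26.5, 26.8 and 23.1 CPM in monoculture, against 96.4, 105 and 96.4 CPM in 2D (-1.96 ± 0.19, edgeR adjusted p 7.4e-08). All 3 had every monoculture library below every 2D library, as the choice required. MAVS, the mitochondrial adaptor of RNA sensing, had 53.4, 48.6 and 54.9 CPM in monoculture, against 146, 163 and 137 CPM in 2D, and PCF11, a 3′ end processing factor, had 34.7, 37.2 and 25.1 CPM in monoculture, against 128, 112 and 91.8 CPM in 2D. USP51, ZNF629, P3H4, TIGD5, ARID5B, ETAA1 and TBC1D16 completed these 12, at log2 -2.44, -2.17, -2.21, -2.56, -1.67, -1.96 and -1.24. PPP1R10, a phosphatase 1 regulator, was among the largest falls with 25.2, 41.9 and 17.4 CPM in monoculture, against 136, 188 and 101 CPM in 2D (-2.34 ± 0.41, edgeR adjusted p 2.1e-04).

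Most of the HoxBan response of control cells also occurred in HIF1A-null cells. Of the 1320 genes higher in control cells (10.3% of those tested), 926 were called higher in HIF1A-null cells, which is 70.2% of the control list and 71.6% of the HIF1A-null list, and 1316 had the same sign. Of the 1455 genes lower in control cells (11.3%), 927 were called lower in HIF1A-null cells (63.7% and 71.9%), and 1444 had the same sign. No gene was called in opposite directions. The median log2 fold changes of the control lists were 0.88 in HIF1A-null cells and 0.95 in control cells for the higher genes, and -0.81 in HIF1A-null cells and -0.99 in control cells for the lower genes. WT cells had 795 higher genes (6.19%) and 1104 lower (8.59%), of which 587 and 721 were called the same way in HIF1A-null cells (73.8% and 65.3% of the WT lists, 45.4% and 55.9% of the HIF1A-null lists). Without WT library 29 of monoculture these 2 counts were 350 and 475, and WT cells had 399 higher and 663 lower genes. In control cells library 15 moved the counts most, with 851 higher and 881 lower genes without it. In all 3 lines 528 genes were higher and 644 lower. HIF1A-null cells alone had 308 higher and 285 lower genes, of which 304 and 277 had the same sign in control cells, at medians of 0.95 in HIF1A-null and 0.53 in control cells for the higher genes and -0.78 in HIF1A-null and -0.44 in control cells for the lower genes.

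**Figure D4:**
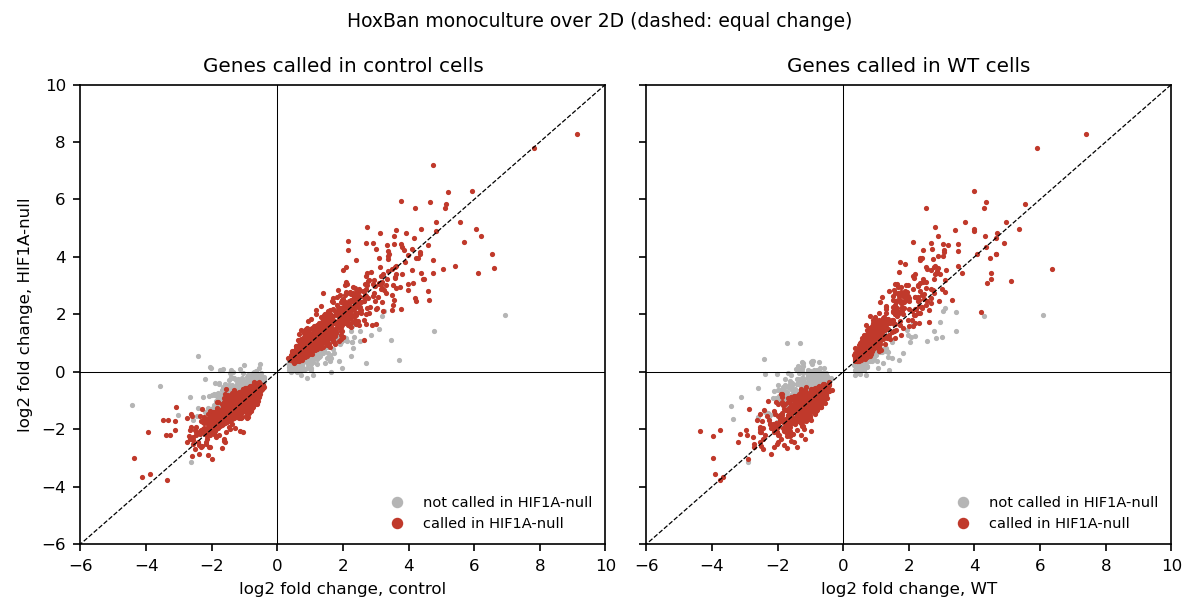
Log2 fold change of HoxBan monoculture over 2D in HIF1A-null cells (vertical axes) against that in control cells (left) or WT cells (right), for genes called in the line on the horizontal axis, with genes also called in HIF1A-null cells in red and the dashed line marking equal change. Of the control genes 926 are red above 0 and 927 red below, and no red point lies in a quadrant of opposite signs.

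With the filter on low counts, no gene passed the test of the difference in response between lines. Between HIF1A-null and control cells 0 of 12849 genes had an adjusted p under 0.05 by edgeR (0%) and 0 by DESeq2, and 180 had an unadjusted p under 0.05, where chance gives 642. Between HIF1A-null and WT cells the counts were 0, 0 and 531. Without the filter, the response was called higher for 1 gene and lower for 3 in HIF1A-null than in control cells, and higher for 26 and lower for 1 than in WT cells. Neither an adjusted p above the threshold nor a count below the chance number shows that the responses were alike. ADM was at 1.93 in HIF1A-null and 1.92 in control cells, with a difference of 0.01 ± 0.37. The difference was 0.14 ± 0.46 for CITED2 and -0.13 ± 0.72 for EGLN3. HIF1A-null cells had 12 of the 43 HIF1 targets higher and 1 lower, against 14 and 2 in control cells and 3 and 3 in WT cells. In the same order of lines, 10.1%, 10.3% and 6.19% of all genes were higher and 10%, 11.3% and 8.59% lower. Of the 43, 2 had an unadjusted p under 0.05 for the difference between HIF1A-null and control cells, and 12 between HIF1A-null and WT cells.

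The 2 were ANKRD37 and HILPDA. ANKRD37 rose by log2 3.71 ± 0.69 in control cells (edgeR adjusted p 3.8e-04), with 10.5, 88.5 and 139.7 CPM in control monoculture, against 6.89, 5.34 and 5.68 CPM in control 2D, and its difference, HIF1A-null minus control, was -3.31 ± 1.01 (unadjusted p 0.0029, adjusted 1.00). Library 11 was far below the other control monoculture libraries. In WT cells ANKRD37 had 7.09, 29.9 and 27.3 CPM in monoculture, against 76.1, 8.52, 20.6 and 18.3 CPM in 2D, with overlap. HILPDA had 41.6, 119 and 133 CPM in control monoculture, against 18.8, 12.5 and 15.5 CPM in control 2D, and its difference was -1.51 ± 0.45 (unadjusted p 0.0025, adjusted 1.00). In HIF1A-null monoculture neither gene reached the lowest of the control monoculture libraries. IL18 rose by log2 0.84 ± 0.30 in control cells (edgeR adjusted p 0.046) and was at 0.41 ± 0.31 in WT cells (adjusted p 0.41), and the differences of the HIF1A-null response were 0.12 ± 0.43 from control (unadjusted p 0.79) and 0.54 ± 0.44 from WT cells (unadjusted p 0.23). TNFAIP3 differed the other way, by 1.35 ± 0.44 (unadjusted p 0.0046, adjusted 1.00), with library 7 the highest. TRAK2, CFLAR and TRIM68 had the smallest unadjusted p of the difference from control cells, at 8.5e-04, 0.0012 and 0.0021.

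**Figure D5:**
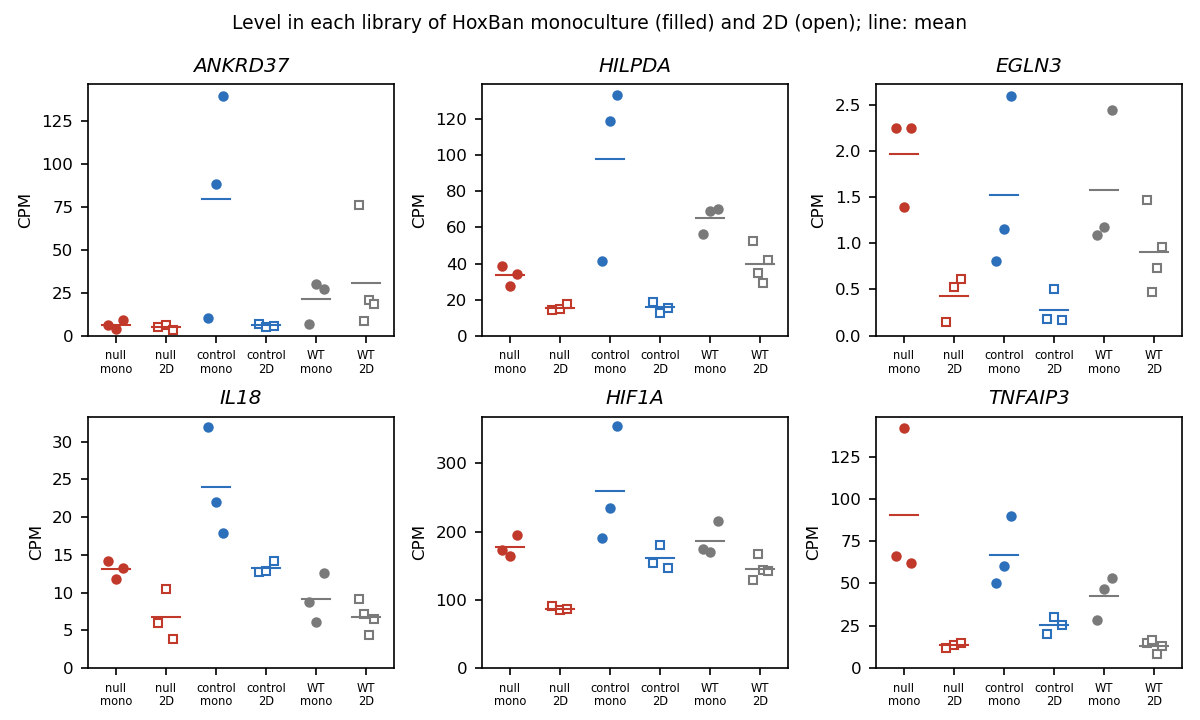
CPM of 6 genes in each library of HIF1A-null, control and WT cells, from left to right, with HoxBan monoculture (filled circles) left of 2D (open squares) in each line and the mean as a bar, on axes that start at 0. ANKRD37 is between 3.93 and 9.38 CPM in HIF1A-null monoculture and between 10.5 and 139.7 CPM in control monoculture.

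Counts of called genes in other lists are given side by side. The tested lists held 26 immediate early genes, 15 NF-κB targets, 19 growth arrest genes and 16 genes of the unfolded protein response. Of these, 20, 10, 8 and 6 were higher in HIF1A-null cells. The counts were 20, 9, 8 and 6 in control cells and 15, 3, 3 and 4 in WT cells. Of all genes 10.1% were higher in HIF1A-null, 10.3% in control and 6.19% in WT cells. Of 82 ribosomal protein genes, 2 were higher in HIF1A-null cells, against 24 in control and 9 in WT cells, with medians of 0.26 in HIF1A-null, 0.40 in control and 0.33 in WT cells, and none had an unadjusted p under 0.05 for the difference. Among immediate early genes, 12 of 26 had an unadjusted p under 0.05 for the difference between HIF1A-null and WT cells and 0 for that between HIF1A-null and control cells. Of all 12849 genes, 531 and 180 had one, in the same order, so 0 of 26 is near the share of all genes. JUN was at log2 3.47 in HIF1A-null, 2.85 in control and 1.69 in WT cells.

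In coculture with F. prausnitzii, HIF1A-null cells gave the levels that follow, and no comparison was made. GADD45B had 194, 194 and 243 CPM in coculture, CYP1A1 110.0, 122 and 58.7 CPM, HSPA5 3157, 3775 and 3559 CPM and CERK 7.19, 7.22 and 6.22 CPM. IL18 had 9.05, 15.0 and 14.2 CPM, HIF1A 210.1, 159 and 137 CPM and ANKRD37 4.79, 5.68 and 3.73 CPM. FOS was at 31.7, 29.2 and 38.5 CPM, and CCL20 at 10.1, 93.6 and 20.1 CPM, where 1 coculture library held most of the counts.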

How the data were processed

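The authors deposited whole-number counts per Ensembl gene for each library. Per the labels the reads are QuantSeq 3′ reads and the genome is hg38. Aligner, counter, annotation and strandedness were not given in the sources used here, and overlapping and antisense genes may share reads. The counts were used as deposited, with 0 columns left without a sample. Symbols came from a gene name table for 40995 of 60107 rows and from GENCODE 29 for 15536, and 3576 stayed without a name.

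Libraries were grouped by genotype and treatment label. Genes passing edgeR's filterByExpr (12849) were fitted with TMM factors and glmQLFit over 28 libraries in 9 groups (19 residual degrees of freedom), so all groups shared 1 estimate of the spread. glmQLFTest gave HoxBan monoculture against 2D within each line and the difference of these responses between lines, with Benjamini-Hochberg adjustment and a threshold of 0.05. Standard errors are the log2 fold change divided by the root of F. CPM used TMM factors over all 32 libraries. Counting intervals cover counting error only. Total counts, given with the results, set the precision of each level. Replicates differed beyond sampling noise in every pair, so none was merged.

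The members and gene lists were chosen with earlier results of these data known. Named genes were HIF1A, IL18, PGK1 and EGLN3, the 12 called genes each way with the smallest adjusted p at a mean of at least 5 CPM and without overlap of libraries, the 6 called genes each way with the largest change at a mean of at least 20 CPM, up to 8 called genes each way for the differences between lines (there were none), and up to 4 genes of each of the 29 lists with the smallest p, called or not. Further genes were named after their values were seen, among them ANKRD37, HILPDA, NGFR and the CXCL chemokines. Some members of the lists are counted but not reported here by name. Alternatives were upper-quartile factors, library totals, TMM without mitochondrial genes, no filter, mitochondrial share as a covariate, only the groups compared, DESeq2, and each library left out. The code was tested on simulated data with 200 changed genes. Fits used edgeR 4.0.16, limma 3.58.1 and DESeq2 1.42.0 under R 4.3.3, and tables and plots used scipy 1.17.1, pandas 2.3.3, matplotlib 3.10.9 and numpy 2.4.6 under Python 3.11.15.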

Additional observations from a re-analysis of the deposited data

Results flagged for a closer look

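The mitochondrial share of counts in WT 2D replicate 12 was 14.1%, far from the other 3 libraries of that group, of which the next was at 6.30% and the lowest at 4.94%. The gap to its neighbour took 0.851 of the range of the group. Among the 2D libraries of HIF1A-null and control cells, replicates 1 and 26 were also the highest, at 15.3% and 17.1%.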

How the results depend on the processing

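No paired analysis was possible because the library numbers in the labels are not shared between groups. In HIF1A-null cells, the count of genes higher in HoxBan monoculture than in 2D was 825 to 1343 and that of lower genes 807 to 1186 with single libraries left out, and both stayed within 1.5 times of the count with all libraries under every other alternative but 1. That one left out the 2D library of high mitochondrial share of each line, was chosen after seeing the data, and gave 821 lower genes in HIF1A-null and 925 in control cells, 509 higher genes in WT cells, 534 genes lower in both HIF1A-null and control cells, and 377 higher and 426 lower in both HIF1A-null and WT cells. Scaled by library totals, control cells had 727 higher and 2644 lower genes and WT cells 376 and 1846. With mitochondrial share as a covariate, WT cells had 1255 higher and 1658 lower genes. With single libraries left out, control cells had 851 to 1433 higher and 881 to 1511 lower genes and WT cells 399 to 695 and 663 to 1046, and HIF1A-null and WT cells shared 350 to 555 higher and 475 to 658 lower genes. Without the filter on low counts, the HoxBan response was called higher for 1 gene and lower for 3 in HIF1A-null than in control cells, and higher for 26 and lower for 1 than in WT cells. The direction changed for genes that had no call. COL3A1 was at -0.022 with the covariate and at -0.50 to 0.64 with single libraries left out, below 0 without monoculture library 4 or 2D library 31. MT2A was at -0.072 to 1.85, below 0 without monoculture library 7. TFF3 was at -0.62 to 0.85, below 0 without monoculture library 7 or 2D library 1, and at -0.033 with the 3 2D libraries of high share left out. The causes were not tested. Of 198 named genes, 189 kept their direction and call with DESeq2 and 192 with upper-quartile factors. Fewer did so with library totals (170) and without the filter on low counts (171). With single HIF1A-null libraries left out 156 to 173 did, and 155 with the 2D libraries of high mitochondrial share left out.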
